A study of Mus musculus with 4 samples.

Results

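The 46 genes described here make the proteins that copy DNA, and they were followed in thymocytes of wild type, preleukemic and leukemic mice by single-cell RNA sequencing. They were taken from a list by name, not by their level, and they are 46 of the 31053 genes in each matrix of unique molecular identifiers (UMIs, tags that count captured RNA molecules). All 46 passed the filter on low values, a mean over the 4 libraries of at least 5 CPM (UMIs of a gene scaled to a library total of 1000000). The list covers origin licensing (11 genes), helicase activation (6), the sliding clamp and its loader (7), polymerases (9), the single-strand binding complex (3), lagging-strand maturation (2), nucleotide supply (5), and a last group of 3 genes for uracil removal, chromatin remodelling and the checkpoint.

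Before a cell divides, the origin recognition complex with Cdc6 and Cdt1 loads the Mcm2 to Mcm7 ring onto DNA, a step called licensing. In S phase Cdc45 and the GINS complex turn that ring into an active helicase, primase starts each strand, the Rfc complex sets the Pcna clamp on the primer, and the delta and epsilon polymerases extend it. Replication protein A covers the exposed strand, Fen1 and Lig1 seal the fragments of the lagging strand, and ribonucleotide reductase (Rrm1 with Rrm2), thymidylate synthase (Tyms), thymidine kinase (Tk1) and dUTPase (Dut) supply clean nucleotides. In the thymus, bursts of division follow the Il2ra-expressing stage that lacks Cd4 and Cd8, and cells that hold both Cd4 and Cd8 then come to rest. Many of these genes are textbook targets of the E2F factors, which are released from the retinoblastoma proteins late in G1.

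The samples were whole thymi of FVB/N mice, dissociated, freed of red cells and sorted for viable singlets that exclude 7-AAD. They were 1 wild type mouse (WT) and 1 preleukemic mouse, both 6 weeks old, and 2 leukemic mice, T-ALL#1 and T-ALL#2, 3 months old. The preleukemic and leukemic mice carried Tal1 and Lmo2 transgenes, which the study's methods place under the proximal Lck promoter, a promoter active in early thymocytes. With 1 library in the WT and preleukemic groups, no test was made between groups, and age cannot be told apart from leukemia.

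After the filters on cells, 4220 WT, 5576 preleukemic, 5773 T-ALL#1 and 1975 T-ALL#2 cells were kept, with a median of 3800.5, 4888, 8742 and 17581 UMIs per cell. Library totals ran from 24042062 UMIs in WT to 70745712 in T-ALL#1. The libraries shared 0 to 9 cell barcodes per pair. Tal1 stood at 0, 410, 68.3 and 234 CPM in the order WT, preleukemic, T-ALL#1 and T-ALL#2, the order used for all values below, and was thus found in the 3 transgenic libraries alone. Lmo2 stood at 0.915, 4.48, 0.368 and 0.276 CPM, so both leukemic libraries were below WT for it. Whether the 3′ reads reach the Lmo2 transgene was not tested. The labels call the WT and preleukemic mice male. Xist, the RNA of the inactive X, stood at 1380, 1869, 1932 and 0.0828 CPM, and the Y-linked Ddx3y at 0, 0, 0 and 40.6 CPM, which goes against that label in the libraries labelled WT and preleukemic. T-cell markers (10 genes) took 33.2 to 60.8 UMIs per 10000 in the 4 libraries. Myeloid markers (7 genes) took 4.04, 1.36, 0.893 and 0.802 UMIs per 10000, and at most 17 cells of a library had 3 or more of them. T-ALL#2 was deposited with every barcode, and its droplets of at least 100 and under 500 UMIs held 52.1 replication UMIs per 10000, against 53.5 in its cells. RNA from such droplets would make up 1.61% of the UMIs of a median T-ALL#2 cell. The other matrices held called cells alone, so free RNA was not measured there.

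Promoter sequence is shown first, because the E2F letters are the element these genes are best known to share. RefSeq promoters of mouse build GRCm38.p6 (250 bases before to 50 after each start, 300 in all) were at hand for 39 of the 46 genes. The letters TTTCCCGC, read on both strands, were in 9 of the 39 (23.1%) against 1.24% of the 27025 genes with a promoter. TTTGGCGC was in 6 (15.4%) against 0.585%, and either spelling in 14 (35.9%) against 1.80%. The CCAAT box was in 23 (59.0%) against 41.1%, and TTTGAA, the core of the cell-cycle homology element, in 5 (12.8%) against 20.2%. Mcm7 and Gins3 also held a match before the start, beginning 165 and 41 bases from it, which is not shown. The windows below lie before the RefSeq start and are written along the gene's own strand. The matched letters are in capitals, and read GCGGGAAA or GCGCCAAA where the match is on the opposite strand.
Cdc6, chr11:98908003-98908030, + strand: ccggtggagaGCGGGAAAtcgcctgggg
Mcm5, chr8:75109350-75109377, + strand: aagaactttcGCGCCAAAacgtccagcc
Mcm6, near copy, chr1:128359735-128359762, - strand: attggacgggTTTGGCGCgaagtagctc
Mcm6, far copy, chr1:128359798-128359825, - strand: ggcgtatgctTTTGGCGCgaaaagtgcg
Pola1, chrX:93632276-93632303, - strand: tcatcacaggGCGCCAAAtgcactcccg
Hells, chr19:38930918-38930945, + strand: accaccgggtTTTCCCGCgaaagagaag
The matches begin 138 bases before the RefSeq start in Cdc6 and Pola1, 149 in Mcm5, 62 in Hells, and 47 and 110 in Mcm6. These genes load the helicase (Cdc6), form its ring (Mcm5, Mcm6), begin each strand (Pola1) and remodel chromatin (Hells). In the GENCODE M21 annotation Cdc6 starts at 98907801 and Hells at 38930915, so there both windows lie inside the gene.

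Rrm2, whose level differed most between the libraries within dividing cells (described further on), held neither E2F spelling in its window. The 250 bases before its RefSeq start, chr12:24708004-24708253 on the + strand, are shown with the CCAAT box in capitals.
Rrm2: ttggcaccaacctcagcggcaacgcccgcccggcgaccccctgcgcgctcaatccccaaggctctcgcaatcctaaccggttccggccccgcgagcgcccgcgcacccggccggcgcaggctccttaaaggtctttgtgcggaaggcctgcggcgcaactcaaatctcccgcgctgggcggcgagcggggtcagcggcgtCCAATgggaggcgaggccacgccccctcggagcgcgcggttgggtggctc
A match is a description of letters, and its absence says only that these letters are not in this window.

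The first question was how many cells were replicating. Each cell was thinned at random to 2000 UMIs, so that deep and shallow cells are read alike, and the UMIs of the 46 genes were summed. A split of these sums into a low and a high cluster, with 1 threshold for all libraries, called a cell replicating at 6 or more replication UMIs of 2000. By this rule 18.02% of WT cells were replicating (582 of 3229, exact Clopper-Pearson 95% interval 16.7 to 19.4), and 19.4% of preleukemic cells (1015 of 5226, 18.4 to 20.5). The leukemias were at 44.8% for T-ALL#1 (2542 of 5679, 43.5 to 46.1) and 53.9% for T-ALL#2 (1065 of 1975, 51.7 to 56.1). Intervals of WT and the preleukemic library overlapped, and both leukemic libraries lay above them. These intervals, and the Poisson intervals of CPM values, cover counting error only and not the spread between mice. Thinning left out 991 WT, 350 preleukemic, 94 T-ALL#1 and 0 T-ALL#2 cells below 2000 UMIs. With the same UMI minimum of 3416 in every library the shares were 24.0%, 23.0%, 48.5% and 53.9%.

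**Figure D1:**
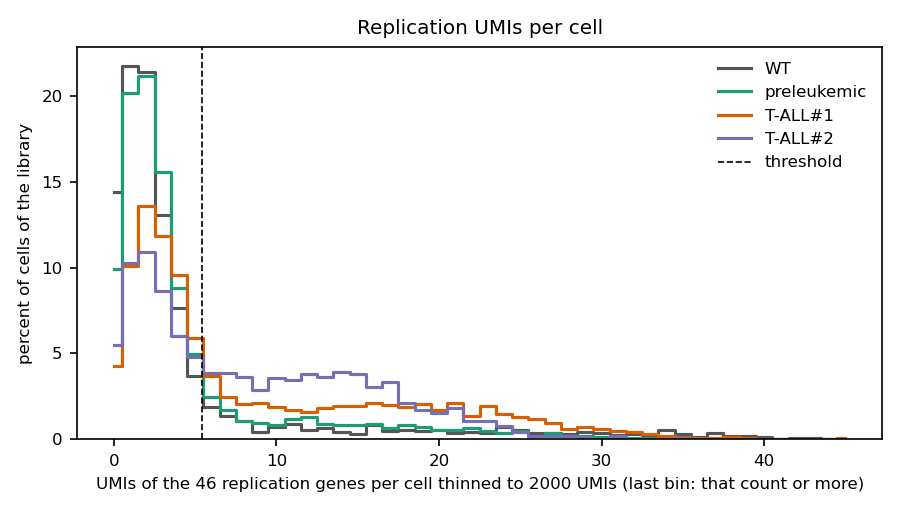
Distribution over cells of the summed UMIs of the 46 replication genes per 2000 UMIs of a cell (x axis), as the percent of the cells of each library (y axis), with the threshold for a replicating cell marked. Every library peaks at 1 or 2 UMIs, and both leukemic libraries carry a broad shoulder above the threshold that is lower in WT and the preleukemic library.

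Medians over cells gave a like order. The median cell held 9.92, 11.8, 21.3 and 36.1 replication UMIs per 10000 before thinning and 10, 10, 25 and 35 after it. Within replicating cells the median was 16, 13, 16 and 13 UMIs of 2000, and in all other cells it was 2 in every library. The libraries thus differed in the share of cells above the threshold, while the median within replicating cells was higher in neither leukemia than in WT. In T-ALL#1 that median was above the preleukemic one. The share of cells within the unclear range around the threshold was 14.6% to 21.6%, and with a bound of 10 UMIs the shares were 13.3%, 13.3%, 34.5% and 39.8%. Replicating cells were also the deeper cells, with medians of 13430, 15953, 19282 and 23902 UMIs before thinning against 4316, 4579, 4956 and 10818 in the others.

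Cells were then divided by at least 1 UMI of Cd4, Cd8a and Il2ra, which mark the stages of normal thymocyte maturation. The study reported reduced Cd4 and Cd8a mRNA in preleukemic thymocytes, and still found preleukemic cells in its double-positive clusters. A class may thus hold unlike stages in different libraries, and is read here as detection only. Among cells with both Cd4 and Cd8a, the replicating share was 21.8% (19.8 to 24.0) in WT, 33.2% (26.6 to 40.2) in the preleukemic thymus, 33.5% (31.6 to 35.5) and 33.9% (27.9 to 40.2) in the leukemias. In this class the 3 transgenic libraries had overlapping intervals, and all were above WT. Among cells with Cd8a alone the shares were 18.6%, 26.7%, 55.9% and 56.2%, and both leukemic libraries stood apart from the other pair. Cells with Il2ra and neither co-receptor replicated at 26.4% in WT (14 of 53 cells, 15.3 to 40.3), 37.3% (32.9 to 41.9), 58.2% (53.1 to 63.3) and 67.9% (63.6 to 72.0), the highest value of the 5 classes in each library in this reading. That rank was lost in WT and T-ALL#1 with classes read from thinned cells, where the Il2ra class was at 18.6% and 54.0% against 28.2% with Cd8a alone in WT and 63.9% with none of the 3 genes in T-ALL#1. Under the upper limit on genes the WT value was 9.30%, below the 18.5% with both co-receptors. Its interval at full depth overlapped that of the next class in every library except T-ALL#2. Cells with Cd4 alone stood at 13.6%, 26.7%, 38.7% and 36.8%.

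The class with none of the 3 genes made up most of the preleukemic thymus. It held 63.1% of preleukemic cells, against 9.12% of WT, 9.94% of T-ALL#1 and 8.66% of T-ALL#2 cells, and 13.0% of it (11.8 to 14.2) was replicating there, against 7.88% (5.06 to 11.6), 46.5% (42.3 to 50.7) and 41.5% (34.0 to 49.3). Cells with both co-receptors made up 49.7%, 3.60%, 41.7% and 12.3% of the libraries. Detection of a co-receptor depends on depth, and when the classes were read from the thinned cells the replicating share of cells with both co-receptors was 11.1%, 12.1%, 15.3% and 17.6%, and that of cells with none 20.7%, 18.5%, 63.9% and 59.6%. By value, both leukemic libraries were above the other pair in both readings of these 2 classes, while the gap between WT and the preleukemic library was not kept. The WT value of the Il2ra class, from 53 cells, was 9.30% with an upper limit on genes per cell. In the thinned reading that class was at 60.2% in T-ALL#2.

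**Figure D2:**
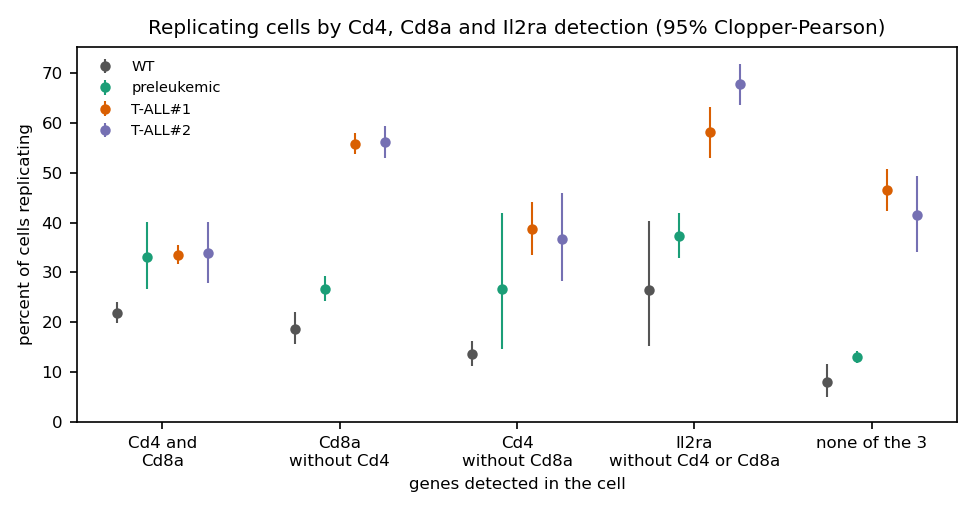
Percent of cells that were replicating (y axis) by detected Cd4, Cd8a and Il2ra (x axis) in the 4 libraries, with exact 95% intervals as bars. The Il2ra class without co-receptors has the highest value in each library in this reading, and the class with none of the 3 genes is at 7.88% in WT and 46.5% in T-ALL#1.

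The levels of single genes were read in all cells and then in cells with at least 1 UMI of Mki67 or Top2a, a pair of proliferation genes outside the list. This set, called cycling cells below, held 870, 1325, 2767 and 1222 cells, or 20.6%, 23.8%, 47.9% and 61.9% of each library, and 18.1%, 13.7%, 31.2% and 29.0% when the 2 genes were read in thinned cells. It missed 15.8% to 25.9% of replicating cells, and 23.6% to 42.2% of it was not replicating by the rule above. Summed over all cells, the 46 genes took 44.4, 38.8, 66.0 and 53.5 UMIs per 10000. Summed over cycling cells they took 85.0, 67.9, 82.5 and 63.4. The leukemic libraries were thus the highest over all cells, while WT was the highest within cycling cells. In sums over all cells, fewer replicating cells and less of these RNAs per cell cannot be told apart.

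A gene was counted as higher or lower when its CPM differed by 1.5-fold, for the leukemic group in both leukemic libraries. Over all cells, 12 of 46 genes were higher in the leukemic than in the preleukemic libraries, where 6.13% of the 9196 genes tested were, and 0 of 46 were lower, where 22.5% of all genes were. They were Mcm10, Pclaf, Rfc4, Pola1, Prim1, Pold2, Pole, Lig1, Tyms, Tk1, Dut and Ung. Against WT, 10 were higher (8.16% of all genes) and 0 lower (25% of all genes). They were Mcm10, Gins2, Rfc4, Prim1, Prim2, Pold2, Lig1, Tk1, Dut and Ung. With TMM factors, which centre most genes at no change, 33 and 34 of the 46 genes were higher in these comparisons. The share of all genes was not counted under those factors, so these 2 counts have no background to be read against. Between the preleukemic library and WT, 1 was higher (8.51% of all genes), namely Prim2, and 4 were lower (9.95% of all genes), namely Rrm2, Tk1, Tyms and Pclaf. This balance depended on how cells were counted, with 3 higher and 1 lower when all cells were weighted equally or kept under the upper limit on genes, and 5 higher and 1 lower without the 5% of cells with most UMIs. The lower gene was then Rrm2 alone. The median log2 ratio of the 46 genes was 0.44 for leukemic over preleukemic, against -0.32 for all genes, and 0.38 for leukemic over WT, against -0.35. It was -0.06 for preleukemic over WT, against -0.02.

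In cycling cells most of these differences were smaller than the fold. Of the 46 genes, Tk1 alone was higher in both leukemic libraries than in the preleukemic one (4.1% of the 8917 genes tested) and 0 were lower (13.4%). Against WT, 0 were higher (6.35%) and Rrm2 alone was lower (18.3%). In the preleukemic library against WT, 0 were higher (7.26%) and the same 4 genes as over all cells were lower (9.49%). The CPM scale is set by all genes of a library, whose median log2 ratio was -0.29 for leukemic over WT in cycling cells, against -0.17 for the 46. Under TMM factors Dut and Ung were higher in both leukemic libraries than in WT and Rrm2 was still lower, while Tk1, Dut, Lig1, Tyms and Pold2 were higher than in the preleukemic library. In T-ALL#2 alone 13 genes were lower than in WT by 1.5-fold, and in T-ALL#1 alone 1 was. The share of all genes was not counted for 1 leukemia alone or under TMM factors. By those factors genes in general had lower CPM in the leukemias than in WT. The log2 shift was -0.45 for T-ALL#2 and -0.24 for T-ALL#1. Whether the count of 13 is particular to these genes was not tested.

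**Figure D3:**
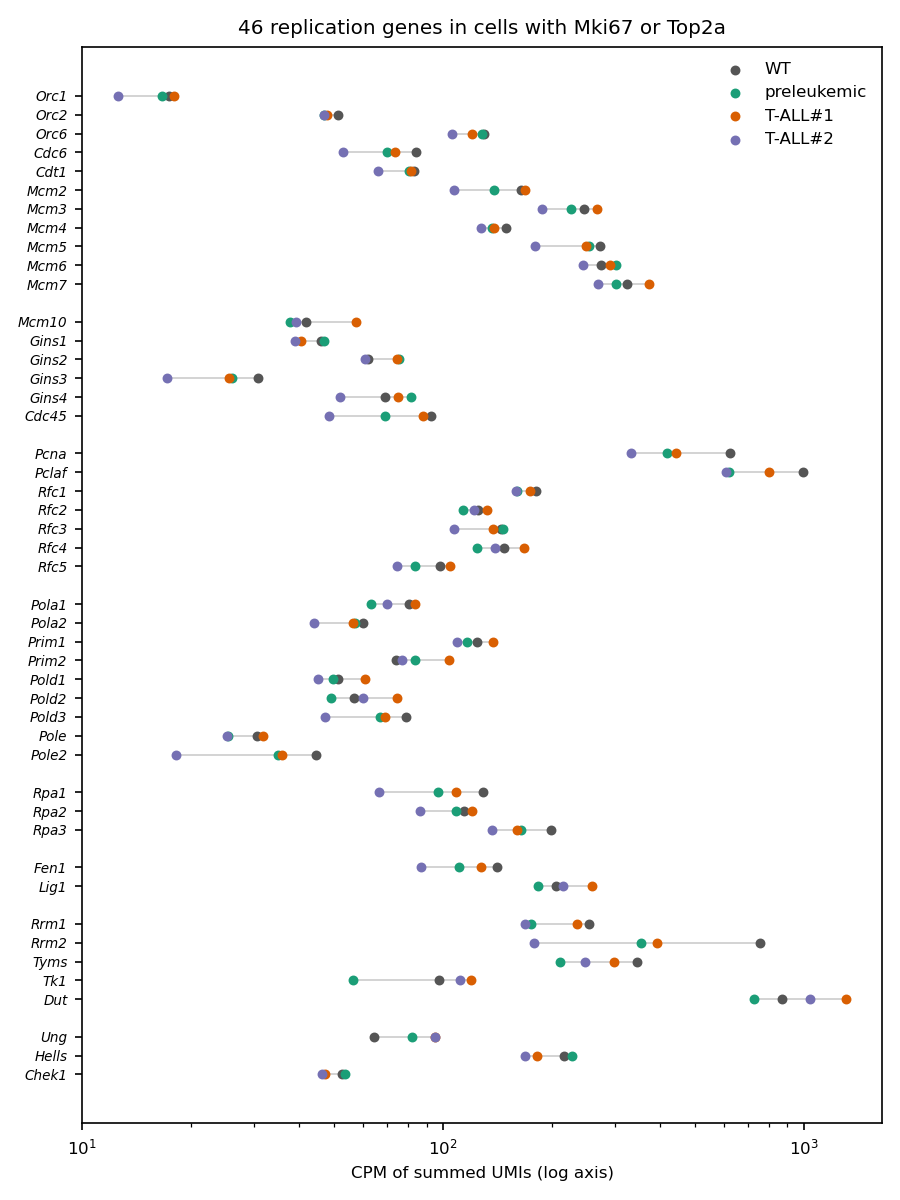
CPM (x axis, log scale) of each of the 46 genes (y axis, grouped by role) in cycling cells, those with Mki67 or Top2a, with 1 point per library and a line across the 4. Rrm2 has the widest line, from 179 CPM in T-ALL#2 to 756 in WT, and T-ALL#2 is the lowest point for most licensing genes.

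Of the few calls in cycling cells most fell on nucleotide supply genes, though each share of the 46 was below that of all genes. The 4 lower in the preleukemic library became 1 at a fold of 2 and 1 with the cycling set from thinned cells. They became 2 where both Mki67 and Top2a were required. Rrm2 (ENSMUSG00000020649, chr12:24708241-24714146 in GENCODE M21 on GRCm38, + strand), the small subunit of ribonucleotide reductase that limits the making of deoxynucleotides, stood at 756, 353, 392 and 179 CPM in cycling cells. The exact Poisson 95% intervals were 740 to 773, 345 to 362, 387 to 398 and 174 to 184, so that WT was above the 3 transgenic libraries and T-ALL#2 below them all. Relative to WT the other libraries were at 0.467, 0.519 and 0.237. Rrm1, the large subunit, stood at 254, 176, 235 and 169 CPM, a narrower spread in the same cells. Over all cells the log2 ratio of Rrm2, preleukemic over WT, was -0.83 to -1.15 under the scalings and cell filters tried.

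Dut (ENSMUSG00000027203, chr2:125247190-125258608, + strand), which removes dUTP before it can enter DNA, was the member with most UMIs in both leukemias. Over all cells it stood at 449, 402, 1074 and 911 CPM, and in cycling cells at 871, 727, 1305 and 1038. Its level was also high outside the cycling set, with 107, 130, 452 and 532 CPM in cells with neither Mki67 nor Top2a. In cells with at most 2 UMIs of 2000 from the other 45 genes, that is cells low for the rest of the machinery, Dut stood at 87.0, 77.4, 314 and 322 CPM. Both leukemic libraries were thus above the other pair also in cells with little replication RNA. Free RNA, measured in T-ALL#2 only, was not tested as a source of that level.

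Tk1 (ENSMUSG00000025574, chr11:117815526-117826092, - strand), the salvage kinase for thymidine, stood at 97.5, 56.3, 120 and 112 CPM in cycling cells. Both leukemic libraries were about level with each other and 2.13 and 1.98 times the preleukemic value, while WT lay between. Tyms, which makes thymidylate anew, stood at 344, 210, 297 and 248 CPM, again lowest in the preleukemic library. Across this role the 5 genes summed to 23.2, 15.2, 23.5 and 17.4 UMIs per 10000 of cycling cells.

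**Figure D4:**
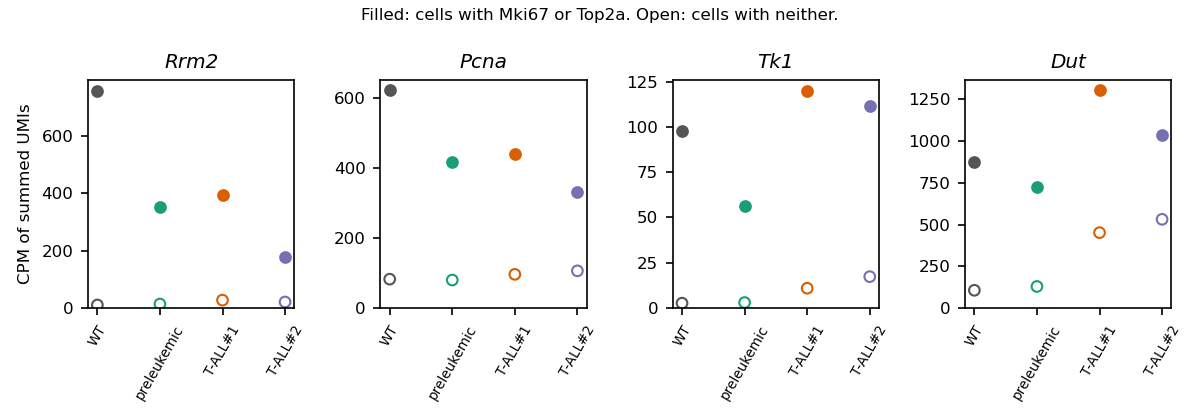
CPM (y axis) of Rrm2, Pcna, Tk1 and Dut in the 4 libraries (x axis), with filled points for cycling cells and open points for cells with neither Mki67 nor Top2a. Rrm2 falls from 756 CPM in WT to 179 in T-ALL#2 within cycling cells, and Dut outside them is 107 CPM in WT and 532 in T-ALL#2.

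The clamp and its loader came next. Pclaf (ENSMUSG00000040204, chr9:65890237-65903266, + strand), a small protein that binds the clamp, stood at 995, 618, 801 and 609 CPM in cycling cells. Pcna (ENSMUSG00000027342, chr2:132249162-132253314, - strand), the clamp itself, stood at 624, 416, 441 and 331 CPM, highest in WT and lowest in T-ALL#2. The loader genes differed less, and Rfc4 was the 1 loader gene past the fold over all cells, at 72.9, 68.2, 132 and 115 CPM. In cycling cells Rfc4 stood at 147, 124, 167 and 139, and Rfc1, Rfc2, Rfc3 and Rfc5 lay within 74.6 to 181 CPM.

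The licensing genes differed little between WT, the preleukemic library and T-ALL#1 within cycling cells, and T-ALL#2 was below WT by the 1.5-fold bound for Cdc6, Mcm2 and Mcm5. Mcm7, the ring subunit with most UMIs, stood at 324, 301, 373 and 268 CPM there, and at 182, 190, 309 and 235 over all cells. Mcm2, Mcm3, Mcm4, Mcm5 and Mcm6 spanned 107 to 301 CPM in cycling cells, with T-ALL#2 the lowest library for each of the 5. Cdc6, the loader of the ring, stood at 84.0, 70.1, 73.7 and 52.9, and Cdt1, its partner, at 83.2, 80.7, 81.7 and 66.2. The origin recognition subunits Orc1, Orc2 and Orc6 stood at 17.4, 51.3 and 130 CPM in WT cycling cells. Orc2 differed least among the licensing genes over all cells, at 39.4, 37.8, 41.3 and 42.4 CPM. None of the 11 licensing genes was past the fold in both leukemic libraries, over all cells or in cycling cells.

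Of the helicase activators, Mcm10 and Gins2 were past the fold over all cells. Mcm10, which joins the helicase to the polymerase that starts each strand, stood at 19.1, 18.3, 43.4 and 30.8 CPM over all cells and at 41.6, 37.6, 57.2 and 39.2 in cycling cells. Gins2 stood at 31.8, 41.3, 59.0 and 51.0 over all cells. Cdc45, which completes the active helicase, stood at 92.7, 69.1, 88.0 and 48.3 CPM in cycling cells, and Gins4 at 69.3, 81.6, 75.1 and 51.8, both lowest in T-ALL#2. Gins1 and Gins3 stayed under 50 CPM in each library, in cycling cells as over all cells.

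Among the polymerase genes, Prim2 (ENSMUSG00000026134, chr1:33453810-33669795, - strand), the large subunit of primase, did not follow the rest. Over all cells it stood at 43.7, 73.1, 100.1 and 68.7 CPM. In cycling cells it was nearly level at 74.0, 83.4, 104 and 77.2, while in cells with neither Mki67 nor Top2a it stood at 19.2, 64.5, 90.004 and 43.4. Cells low for the other 45 genes held it at 15.2, 59.1, 81.1 and 29.5 CPM, so the libraries differed in Prim2 mainly among cells with little replication RNA. Its partner Prim1 stood at 61.8, 62.0, 108 and 93.2 CPM over all cells and at 124, 117, 137 and 109 in cycling cells. Pola1, Pold2 and Pole were past the fold over all cells for leukemic over preleukemic. Pole2, the small subunit of polymerase epsilon, stood at 44.4, 34.9, 35.7 and 18.2 CPM in cycling cells, with T-ALL#2 lowest. Pola2, Pold1 and Pold3 lay within 28.2 to 55.9 CPM over all cells.

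The remaining roles gave few differences past the fold. Rpa1, the large subunit of the single-strand binding complex, stood at 129, 97.0, 109 and 66.6 CPM in cycling cells, and Rpa2 and Rpa3 lay between 86.4 and 200. Lig1, the ligase that joins lagging-strand fragments, stood at 99.6, 95.2, 199 and 176 CPM over all cells and at 205, 183, 259 and 215 in cycling cells. Fen1, the flap nuclease, stood at 141, 111, 127 and 86.6 in cycling cells. Ung (ENSMUSG00000029591, chr5:114130386-114139323, + strand), which cuts uracil out of DNA, stood at 40.6, 46.8, 78.9 and 84.0 CPM over all cells and at 64.4, 82.0, 94.9 and 95.2 in cycling cells. Hells and the checkpoint kinase Chek1 differed less, with 216, 227, 182 and 168 CPM for Hells in cycling cells and 52.3, 53.6, 47.2 and 46.3 for Chek1.

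The mix of phases within cycling cells also differed between the libraries. Mitotic genes (15 genes such as Ccnb1 and Plk1) took 34.1, 16.9, 21.0 and 9.88 UMIs per 10000 of cycling cells, so replication UMIs were 2.50, 4.03, 3.92 and 6.42 times the mitotic ones. By the 1.5-fold rule all 15 stood below WT in the preleukemic library, and 9 in both leukemias. In cells called replicating from thinned counts the same ratio was 3.05, 4.77, 4.44 and 6.99. WT cycling cells therefore held the most mitotic RNA and T-ALL#2 the least, as for Rrm2. Myeloid markers in cycling cells differed too, at 6.498, 0.968, 0.829 and 0.728 UMIs per 10000. The part of the mix of phases or of these markers in the levels above was not tested.

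A test over replicates was possible where both sides of a comparison came from each library. UMIs were summed over cycling cells and over cells with neither gene in each of the 4 libraries, and compared with edgeR's quasi-likelihood test with the library as a block. All 46 genes were higher in cycling cells at a Benjamini-Hochberg adjusted p under 0.05, where 26.1% of the 11856 genes tested were higher and 26.6% lower. The log2 change was above 0 for each gene in each library. Its median was 2.21 over the 46 genes and -0.04 over all genes. Within single libraries the median was 2.77, 2.35, 1.94 and 1.36. Median UMIs per cell rose in the same order. The cycling set of T-ALL#2 held 61.9% of its cells at full depth but 29.0% when thinned. The part of depth in this decline was not tested. With cells and cycling set read from 2000 UMIs, 45 of the 46 genes were still higher and none lower, with a median of 1.81. The exception was Prim2 (edgeR adjusted p = 0.1688). In that reading 3855 genes were called in all, and the share of all genes higher was not counted.

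Pclaf changed most, by 4.72 on the log2 scale (SE 0.60, edgeR adjusted p = 0.001387), with 6.54, 4.73, 4.11 and 3.06 in the 4 libraries. Rrm2 followed at 4.56 (SE 0.53, edgeR adjusted p = 0.001049), then Cdc45 at 3.96 (SE 0.26, edgeR adjusted p = 0.0002153), Tk1 at 3.92, Mcm10 at 3.90 and Tyms at 3.62. These are the clamp-binding protein, the inducible nucleotide enzymes and the activators of the helicase. At the other end stood Orc2 at 0.95 (SE 0.10, edgeR adjusted p = 0.0004482), Prim2 at 0.97 (SE 0.27, edgeR adjusted p = 0.02488), Gins4 at 1.10 and the single-strand binding genes Rpa3 at 1.12 and Rpa1 at 1.15. Prim2 had 1.95 in WT but 0.37, 0.21 and 0.83 in the others, and its call was lost without the preleukemic library (edgeR adjusted p = 0.06871) and without T-ALL#2 (edgeR adjusted p = 0.07175). Dut changed by 2.17 (SE 0.38), with 3.03 in WT and 0.97 in T-ALL#2. The part of depth in that difference was not tested. By role, the median change was 3.62 for nucleotide supply, 2.71 for the lagging strand, 2.57 for helicase activation and for the last group, 2.34 for clamp and loader, 2.12 for licensing, 2.06 for polymerases and 1.15 for single-strand binding. Genes with an E2F match in the promoter had a median change of 2.19 (14 genes, 1.75 to 4.72) and those without of 2.34 (25 genes, 0.95 to 4.56), and the ranges overlapped.

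Other genes of the process gave a similar picture in the same edgeR test. Of the firing kinases and regulators 9 of 11 were higher, among them Dbf4 at 1.54, the activator of the Cdc7 kinase, while the origin subunits Orc4 and Orc5 were not called at -0.13 and 0.09. Of the fork protection and checkpoint genes 10 of 11 were higher, with Clspn at 3.51 and Timeless at 2.00, while Atr was not called at -0.07. All 9 genes of chromatin assembly were higher, with Uhrf1 at 2.90 and Slbp, the histone mRNA binding protein, at 2.22. Of 8 other nucleotide enzymes 5 were higher and Samhd1, which breaks down deoxynucleotides, was lower, at -1.32. The 5 E2F factors that passed the filter, of 6, were all higher, and so were the 15 mitotic genes, at a median of 4.62.

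The second test divided cycling cells into those with a UMI of Ccnb1, Ccnb2, Cdc20, Plk1 or Aurka, genes of mitosis, and those without. With full counts 44 of 46 genes were higher in the cells with a mitotic gene (19.2% of 10781 genes) and 0 lower (18.5%), with Pclaf highest at 2.07 (SE 0.12, edgeR adjusted p = 7.189e-06). Orc1 at 0.38 and Ung at -0.09 were not called. The result depended on the depth at which cells were read. In cells thinned to 2000 UMIs only Pclaf (0.44), Rpa3 (0.40) and Tyms (0.35) were higher of the 45 genes tested, and Ung (-1.40, edgeR adjusted p = 7.513e-11), Cdc6 (-0.57, edgeR adjusted p = 0.01284) and Rpa2 (-0.44, edgeR adjusted p = 0.0222) were lower. The median of the 45 was -0.08, with 18 above and 27 below 0. In that fit 776 genes were called in all. Their share of the genes tested was not counted by direction, so these calls have no background to be read against. Ung was thus at or below 0 in both readings, while the sign of Cdc6, 0.54 with full counts, turned.

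**Figure D5:**
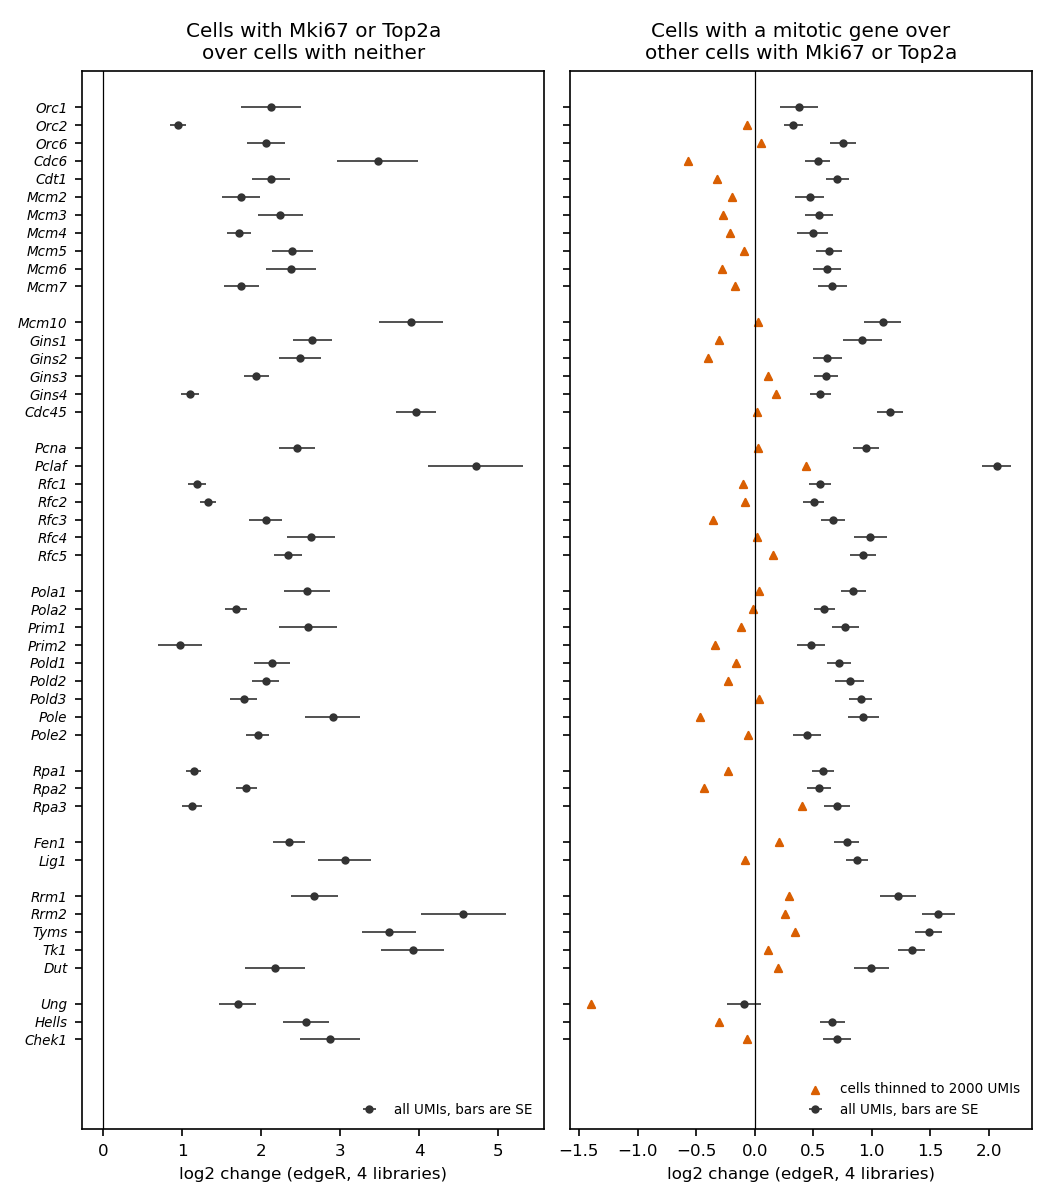
Log2 change by edgeR over the 4 libraries (x axis) of each of the 46 genes (y axis, grouped by role), left for cycling cells over cells with neither Mki67 nor Top2a and right for cycling cells with a mitotic gene over those without. Points are fits to all UMIs with SE bars and triangles fits to cells thinned to 2000 UMIs. On the left all lie above 0, from 0.95 for Orc2 to 4.72 for Pclaf, and on the right the triangles scatter about 0, down to -1.40 for Ung.

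The third test compared, within cycling cells, those with Il2ra and neither co-receptor with those with both co-receptors. The sums held 20 and 503 cells in WT, 195 and 86 in preleukemic cells, 239 and 920 for T-ALL#1, and 348 and 125 for T-ALL#2. Ung alone of the 46 genes was higher (0.193% of 9863 genes), and 0 were lower (0.588%). Its CPM in Il2ra cells was 135, 116, 100.1 and 106, against 49.2, 49.3, 75.3 and 63.9 in cells with both co-receptors, so it was higher in 4 of 4 libraries. The log2 change was 0.96 (SE 0.17, edgeR adjusted p = 0.04856), close to the threshold. The call was lost without the preleukemic library (edgeR adjusted p = 0.2592), without T-ALL#1 (edgeR adjusted p = 0.07321) and without T-ALL#2 (edgeR adjusted p = 0.1048). It was also lost under the upper limit on genes (edgeR adjusted p = 0.1122), with DESeq2 size factors (edgeR adjusted p = 0.05305) and with no replicate block (edgeR adjusted p = 0.4661). It was kept with DESeq2 (adjusted p = 0.0008867), with all genes of at least 1 UMI (edgeR adjusted p = 2.928e-05) and without WT (edgeR adjusted p = 0.04973). At an unadjusted p under 0.05, 2118 of all genes passed.

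The other 45 genes gave no call in this test, and most did not share a direction across the libraries. The median log2 ratio was -0.22, -0.0621, 0.16 and 0.37, and 16, 20, 42 and 46 of the 46 genes were above 0. Rrm2 had the lowest value, -0.63 (SE 0.42, edgeR adjusted p = 0.4466), with -2.09, -0.97, -0.09 and 0.21 in the libraries. Of the 46 genes 11 were above 0 in all 4 libraries and 0 below. Beside Ung these were Orc1, Cdc6 (0.40), Mcm2, Mcm3, Mcm4, Mcm6 (0.37), Rfc4, Pola2 (0.38), Prim2 and Hells, which did not pass the threshold. The share of all genes above 0 in all 4 libraries was not counted, so the 11 cannot be set against it. Of the related lists, 2 of 8 other nucleotide enzymes were higher, Dctpp1 at 0.61 and Shmt1 at 0.88, and 0 genes of firing, fork protection, chromatin assembly, E2F and mitosis were called. Summed mitotic genes still differed between the sides. They took 6.71, 10.7, 16.8 and 9.41 UMIs per 10000 in cycling Il2ra cells. In cycling cells with both co-receptors they took 46.8, 42.0, 25.3 and 11.5. The part of this in the ratios above was not tested.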

How the data were processed

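Droplet-based 3′ single-cell RNA sequencing was done on thymocytes of 4 mice, 1 library each. The deposited matrices hold raw UMI counts per gene and barcode, with no normalization, made by the authors with Cell Ranger (3.0.2 for WT, preleukemic and T-ALL#1, 4 for T-ALL#2, per the file headers) and, per the submitters' processing notes, mm10. The labels do not say which library used which 3′ chemistry. The first 3 matrices hold called cells. In T-ALL#2, which holds 1791965 barcodes, those of at least 3416 UMIs (1/10 of the 99th percentile of the top 10000 barcodes) were called, 2700 in all. Cells with over 500 genes and under 10% mitochondrial UMIs were kept. No doublet caller was run, and cells with very many genes or UMIs were left out as alternatives. CPM values are UMIs summed over cells and scaled to 1000000 per library, with exact Poisson 95% intervals. Sums per library and cell set (at least 10 cells) were compared with edgeR 4.0.16 (limma 3.58.1, R 4.3.3), TMM factors, filterByExpr, a robust quasi-likelihood fit, the library as a block and Benjamini-Hochberg adjustment over all genes, with 0.05 as the threshold. Each pair of sums comes from 1 mouse, and deviations correlated within libraries (0.843 to 0.901, 0.800 to 0.924 and 0.348 to 0.743 in the 3 tests). The tests ask for a difference shared by libraries of 3 conditions. On simulated counts for the first test (11739 genes), 47 of 100 genes changed 1.5-fold and 93 of 100 changed 2-fold were recovered, with 9 false calls. The simulation gave every gene the common dispersion and changed 200 genes alike in all libraries. The real test called 6242 genes, so these rates need not hold for it. Alternatives were DESeq2 1.42.0, other scalings, filters, thinning depths and thresholds, and each library left out. Thinning and levels used Python 3.11.15, numpy 2.4.6, pandas 2.3.3 and scipy 1.17.1, and figures matplotlib 3.10.9. The members and lists were chosen with earlier results of these data known. Within each role, the genes named were those with most UMIs, with the highest and lowest ratio or log2 change in each comparison, and those past a threshold. Prim2 and Dut in cells outside the cycling set were chosen after their values were seen. Reads shared with near-identical copies of a gene were not examined.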

Additional observations from a re-analysis of the deposited data

Results flagged for a closer look

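Droplets of at least 100 and under 500 UMIs in T-ALL#2, which were left out of all comparisons, held 52.1 replication UMIs per 10000 (exact Poisson 95% interval 51.8 to 52.5, 65822 droplets with a median of 283 UMIs), nearly the 53.5 of that library's cells. T-cell markers there ran from 0.539 (Tcf7) to 1.82 (Ptcra) times their CPM in the cells, with Cd3d at 0.978. Nearness to the cells is thus not particular to the replication genes. The droplets are listed as data that the comparisons did not use, and whether they hold free RNA, small cells or debris was not tested.

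In the comparison of cycling Il2ra cells with cycling cells that had both co-receptors, 18 of 46 replication genes (39.1%) were lower in WT and the preleukemic library and higher in both leukemic libraries, a pattern found in 368 of the 8866 genes compared (4.15%). The opposite pattern was found in 0 of 46 replication genes and in 539 of all genes (6.08%). The 18 genes include Pcna, Tyms, Rrm1, Lig1, Fen1 and Cdc45, with Pclaf at -1.28, -0.86, 0.05 and 0.29 and Tk1 at -0.83, -0.31, 0.25 and 0.49 (log2 ratios, in the order WT, preleukemic, T-ALL#1, T-ALL#2). The difference between the leukemic libraries and the others was not tested, since WT and the preleukemic group have 1 library each and the WT value rests on 20 Il2ra cells. Age and the median UMIs per cell differed with the same split. Mitotic genes also took fewer UMIs in the Il2ra cells in each library, with the wider gaps in WT and the preleukemic library. The part of that gap in the pattern was not tested.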

How the results depend on the processing

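Limits first. With 1 library in WT and in the preleukemic group, differences between groups have no replicate check, age and depth differ between the leukemic libraries and the others, and T-ALL#2 alone was processed with Cell Ranger version 4. T-ALL#2 alone also had Ddx3y and nearly no Xist, so sex as read from these genes separates it from the others too. Alternatives with the same UMI minimum, with T-ALL#2 barcodes of at least 1000 UMIs and with at least 10 UMIs of 2000 were chosen after seeing the data. The thinned fit of the Il2ra comparison was not run, since T-ALL#1 alone had 10 cells on both sides. The cause of the changes below was not tested.

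Counts of genes past the fold moved with the scaling. The share of all genes was counted only with the first scaling and cell filter, not under the alternatives below. For leukemic over WT over all cells, the 10 higher genes became 34 with TMM factors, 33 with cells weighted equally, 33 with thinned cells, 25 under the upper limit on genes, 35 without the 5% of cells with most UMIs, 1 at a fold of 2 and 4 with the same UMI minimum. Leaving out 1 leukemia gave 11 (without T-ALL#1) to 19 (without T-ALL#2) higher and 0 to 3 lower. In cycling cells the 0 higher became 2, 2, 2, 1 and 3 under the first 5 of these, the 1 lower became 0 at a fold of 2, and leaving out 1 leukemia gave 1 to 13 lower and 0 higher. For leukemic over preleukemic over all cells, the 12 higher became 33 (TMM), 30 (equal weights), 29 (thinned), 29 (without the 5%) and 2 (fold of 2), and 12 to 23 with 1 leukemia left out. In cycling cells the 1 higher became 5, 2, 3, 2 and 0 under the same 5, with 1 to 4 higher and 0 to 4 lower when 1 leukemia was left out. For preleukemic over WT over all cells, the 1 higher and 4 lower became 3 and 1 (equal weights), 3 and 3 (thinned), 3 and 1 (upper limit), 5 and 1 (without the 5%) and 0 and 1 (fold of 2). In cycling cells the 0 higher became 1 when thinned and 1 without the 5%, and the 4 lower became 1 at a fold of 2, 1 with the cycling set from thinned cells and 2 with both Mki67 and Top2a required.

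The share of replicating cells kept both leukemias above the other pair in each reading tried. In WT it was 20.1% (1000 UMIs), 20.9% (3000 UMIs), 16.0% (unthinned), 16.1% (10 or more genes detected), 15.3% (upper limit), 23.2% (without Pcna, Pclaf, Dut and Tyms), 24.0% (same minimum) and 13.3% (at least 10 UMIs). In the preleukemic library it was 24.2% (1000 UMIs), 24.4% (its own threshold), 21.8%, 27.8%, 23.0% and 13.3% (genes detected, without 4 genes, same minimum, at least 10 UMIs). In T-ALL#1 the same readings gave 49.0%, 41.1%, 49.1%, 48.8%, 48.5% and 34.5%, and in T-ALL#2 57.2% (unthinned), 70.9% (genes detected) and 39.8% (at least 10 UMIs). With classes from thinned cells, the shares of WT, preleukemic, T-ALL#1 and T-ALL#2 were 11.1%, 12.1%, 15.3% and 17.6% with both co-receptors, 28.2%, 20.5%, 40.6% and 40.4% with Cd8a alone, and 20.7%, 18.5%, 63.9% and 59.6% with none. With Cd4 alone they were 30.4% in T-ALL#1 and 21.6% in T-ALL#2, and the Il2ra class was at 60.2% in T-ALL#2. Under the upper limit WT fell to 18.5%, 15.1% and 9.30% with both, Cd8a alone and Il2ra.

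In the edgeR tests the replicate block mattered. For cycling cells, 6242 genes were called, 922 without the block and 3855 from thinned cells, with 42 replication genes higher without the block (Orc1, Prim2, Dut and Ung lost) and 45 to 46 higher and 0 lower with 1 library left out (4384 to 6276 genes). For mitotic genes, 4070 genes were called, 328 without the block and 776 thinned, with 15 replication genes higher without the block, 3 higher and 3 lower thinned, and 39 to 44 higher and 0 lower with 1 library left out (2015 genes without the preleukemic library to 4030). For Il2ra, 77 genes were called, 0 without the block, 375 with DESeq2, 873 with all genes of at least 1 UMI, 42 under the upper limit and 1 to 152 with 1 library left out. Of the replication genes 0, 2, 4 and 0 were higher there in turn, 0 with DESeq2 size factors, and 0 to 1 with 1 library left out, with 0 lower. The Ung p was 0.4661 without the block.

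The thinned mitotic comparison had 27 of 45 genes below 0, Cdc6 among them, against Ung alone with full counts. Among the genes followed under each alternative there were 20 changes of sign. Thinned, the mitotic comparison gave Orc2 -0.0625, Rfc2 -0.0816, Pole -0.46, Pole2 -0.0587, Rpa2 -0.44, Lig1 -0.0796 and Chek1 -0.0685. Ung was -0.26 to 0.10 there with 1 library left out, above 0 without T-ALL#1. In the Il2ra comparison Mcm7 was -0.0351, Fen1 -0.0453, Lig1 -0.00683 and Dut -0.11 under the upper limit. With 1 library left out it gave Mcm7 at -0.0177 to 0.19, Fen1 at -0.0432 to 0.17, Lig1 at -0.00971 to 0.28, Pola1 at -0.12 to 0.13, Rpa3 at -0.29 to 0.0164 and Gins3 at -0.46 to 0.0178. The values on the other side of 0 came without T-ALL#2 for Fen1, Lig1 and Mcm7, without T-ALL#1 for Mcm7 too (-0.00382), without WT for Pola1 and Rpa3, and without the preleukemic library for Gins3 and Pola1 (0.0114). Of the other values of single genes 32 lost a call in the tests and 3 gained one, and 670 were counted as unchanged. For CPM ratios only the sign was followed, so ratios that fell below the fold are among the 670.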

Other observations

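Related gene lists within cycling cells, in the order WT, preleukemic, T-ALL#1 and T-ALL#2, showed unlike spreads. The chromatin assembly genes (such as Chaf1b, Uhrf1 and Slbp) took 22.8, 18.9, 20.6 and 15.7 UMIs per 10000. The E2F factors took 4.96, 2.71, 2.57 and 1.71, with WT above the 3 transgenic libraries. The firing kinases and regulators took 7.52, 6.27, 6.57 and 5.39, and the fork protection and checkpoint genes 6.86, 5.80, 7.36 and 5.69. Each value is from 1 library, so these differences have no test.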
